A study of Rattus norvegicus with 2 samples.

Results

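Genes of the kinetochore, the centromere and the spindle checkpoint were examined in rat liver regrowing after partial hepatectomy (PH), an operation that takes out part of that organ. The set is a list of 45 gene names, whose rule uses no measured value but which was drawn up with earlier results of these data known. Of the 45, 39 had a probe set named for that gene alone among the 14217 named genes on the array. Cenph, Cenpo, Cenps, Ndc80, Nsl1 and Oip5 had none and were not analysed here. The groups compared, 2/3PH and 1/3PH, carry the fraction of liver removed in their names, and the liver left behind was collected at 24 h. Per the series' design text, RNA from 3 rats per group was pooled, and each pool was read on 1 Affymetrix array, so 6 rats gave 2 measurements. The labels used here name no strain, sex or age, and neither group was an unoperated liver. The question put to the arrays was which mRNAs separate 2/3PH, after which the design text states strong DNA replication, from 1/3PH, after which it states little.

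The kinetochore is the protein structure on each centromere that ties a chromosome to the spindle. Its inner layer sits on nucleosomes that carry the histone variant CENP-A, its outer layer binds microtubules, and unattached kinetochores start the spindle checkpoint, which delays the separation of sister chromatids. Many of its genes are transcribed mainly in late S phase, G2 and mitosis, and adult hepatocytes, which rarely divide, leave quiescence after hepatectomy. Protein roles below are those described in vertebrate cells, mostly human. In bulk tissue, fewer cells carrying a transcript and less of that transcript per cell cannot be told apart.

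Promoter sequences are shown first, because many genes of the cell cycle share short promoter elements. Of the 45 genes, 40 had a promoter window in the RefSeq table of build GRCr8, from 250 bases before to 50 bases after the transcription start. The 6 windows below belong to the 3 genes with the highest log2 ratio and the 3 with the ratio nearest 0, among those with a window and with signals above the floor on both arrays. Each stretch runs 5′ to 3′ on the gene's strand, from 120 bases before the start to 30 bases from the start onward. Capitals mark a CHR (cell cycle genes homology region, spelled TTTGAA in one form and TTCGAA in the other), a CCAAT box or an E2F site. The E2F site was searched in the spellings TTCCCGC and also TTGGCGC, together with TTGCCGC and further with TTCGCGC, and each motif was searched on both strands. Log2 ratios are 2/3PH minus 1/3PH throughout.
Ttk, log2 ratio 3.21, chr8:93634519-93634668, plus strand: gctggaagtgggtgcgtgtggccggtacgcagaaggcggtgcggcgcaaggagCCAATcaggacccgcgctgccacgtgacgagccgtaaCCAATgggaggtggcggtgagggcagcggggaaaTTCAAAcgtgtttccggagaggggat
Spc25, log2 ratio 2.69, chr3:74396689-74396838, minus strand: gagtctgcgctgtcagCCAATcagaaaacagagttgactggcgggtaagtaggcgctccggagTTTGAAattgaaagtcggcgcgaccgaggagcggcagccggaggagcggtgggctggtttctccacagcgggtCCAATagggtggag
Spc24, log2 ratio 2.64, chr8:28581270-28581419, minus strand: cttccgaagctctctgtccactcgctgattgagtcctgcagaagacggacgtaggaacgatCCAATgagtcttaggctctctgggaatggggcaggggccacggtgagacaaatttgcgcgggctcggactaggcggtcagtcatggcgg
Mis12, log2 ratio 0.02, chr10:56238197-56238346, plus strand: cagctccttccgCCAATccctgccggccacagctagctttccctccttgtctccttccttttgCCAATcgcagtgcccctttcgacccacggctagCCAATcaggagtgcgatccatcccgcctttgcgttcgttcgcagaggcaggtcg
Mad1l1, log2 ratio -0.29, chr12:19434662-19434811, plus strand: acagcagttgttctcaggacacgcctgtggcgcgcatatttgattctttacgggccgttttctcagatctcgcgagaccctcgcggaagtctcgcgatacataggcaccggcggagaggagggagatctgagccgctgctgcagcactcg
Mad2l2, log2 ratio 0.62, chr5:163855050-163855199, plus strand: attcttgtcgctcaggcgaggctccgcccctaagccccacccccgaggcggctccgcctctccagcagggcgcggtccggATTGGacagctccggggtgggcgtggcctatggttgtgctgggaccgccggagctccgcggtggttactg
The window of Ttk holds CCAAT boxes at bases -67 to -63 and -30 to -26 and a CHR, read on the opposite strand, at bases 5 to 10 after the start. The window of Spc25 holds a CHR at bases -57 to -52 with a CCAAT box upstream of it, and the Mis12 window holds CCAAT boxes and no CHR. The presence of a CHR did not follow the ratio in all 6 windows. Spc24, with a log2 ratio of 2.64, has none, and Mad1l1, at -0.29, has one at bases -182 to -177, upstream of the stretch shown.

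Transcripts of the kinetochore and the checkpoint were mostly far higher after 2/3PH than after 1/3PH. The signals are MAS 5.0 values in arbitrary units, and a signal under the floor of 89.2, the median over all probe sets, was set to the floor before a gene was called. By this rule 28 of the 39 measured genes (71.8%) were at least 2-fold higher after 2/3PH, against a background of 3.90% of all 14217 named genes. None of the 39 was at least 2-fold lower, against a background of 2.36%. At that background, none lower among 39 genes says little about the set. At a limit of 4-fold the count was 22 of 39, against 0.858% of all named genes. The median log2 ratio of the 39 genes was 2.27, or 4.81-fold, and it was 2.12 with signals under the floor set to it. Across all named genes the median was 0.05. On the deposited scale 38 of the 39 genes had a ratio above 0, against 7571 of all 14217 named genes. The count was 37 with median centring of the arrays and 39 with scaling to poly-A spike-in controls.

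The arrays bear no replicate, so these differences have no error between animals, and no test was made. As a measure of error inside the arrays, the log2 ratio of a probe set had an SD of 0.31 around its gene, over 2067 genes with more than 1 probe set above the floor. Both signals lay above the floor for 30 of the 39 genes. In 8 genes the 1/3PH signal alone was under it, so that a fold is a lower bound, and in 1, Sgo2, both were. With the floor raised to the 75th percentile of signal, 13 of the 39 genes were called higher, against a background of 1.86%. With each array scaled to its poly-A spike-in controls, 34 were called, against a background of 10.5%.

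**Figure D1:**
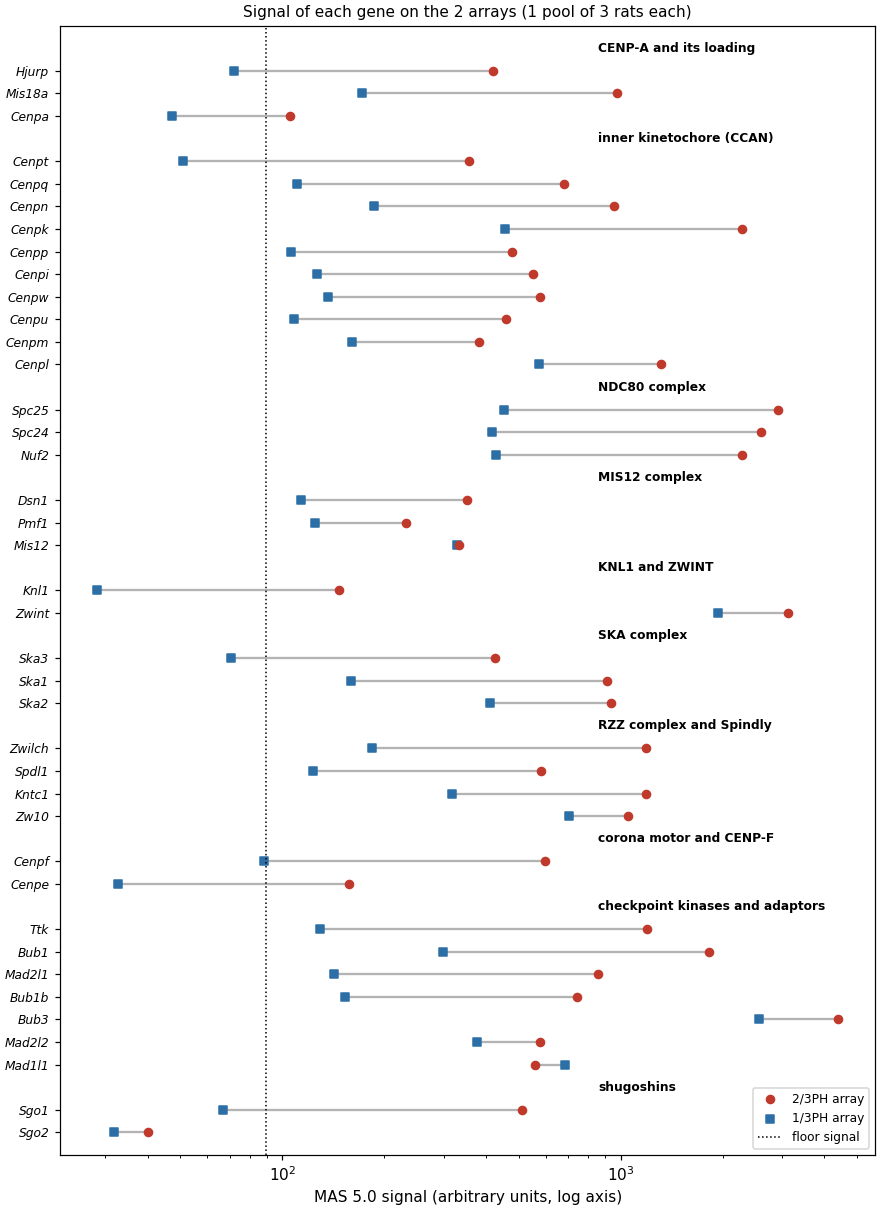
MAS 5.0 signal of 39 genes (horizontal log axis, arbitrary units) on the 2/3PH array (red circles) and the 1/3PH array (blue squares), grouped by role, with the floor signal of 89.2 dotted. The red circle lies to the right of the blue square for 38 genes, Mad1l1 is the exception, and the symbols of Mis12 nearly coincide.

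Of the 3 measured genes for CENP-A and its loading, both loading factors, Hjurp and Mis18a, were higher after 2/3PH, and Cenpa was not called. Hjurp, the chaperone that carries CENP-A to the centromere, had a signal of 419.7 after 2/3PH, against 72.0 after 1/3PH. Since the 1/3PH value was under the floor, it was at least 4.70-fold higher. Mis18a, a subunit of the complex that prepares centromeres for loading, had a signal of 974.3 after 2/3PH, against 172.4 after 1/3PH, 5.65-fold higher. Cenpa, which encodes the variant histone, had a signal of 105.3 after 2/3PH, against 47.1 (under the floor) after 1/3PH, hence at least 1.18-fold higher. Its log2 ratio on the deposited scale was 1.16, so the call depended on the floor.

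The inner kinetochore, known as the constitutive centromere-associated network (CCAN), was higher in every subunit measured. All 10 measured subunits passed 2-fold, with a median log2 ratio of 2.14 and a range of 1.20 to 2.80. Cenpq, of the CENP-O group, had signals of 681.9 after 2/3PH, against 110.5 after 1/3PH, a 6.17-fold difference. Its partner Cenpu had 459.0 after 2/3PH, against 108.3 after 1/3PH, 4.24-fold higher. Cenpp, of the same group, had 478.6 after 2/3PH, against 106.4 after 1/3PH, 4.50-fold higher. These 3 subunits lay above 4-fold. Cenpn, which reads the CENP-A nucleosome, had 958.7 after 2/3PH, against 186.7 after 1/3PH, 5.13-fold higher. Its binding partner Cenpl had 1318 after 2/3PH, against 575.0 after 1/3PH, 2.29-fold higher. On the log2 scale the ratio of Cenpl was less than that of Cenpn by more than 0.31, the SD of a probe set around its gene. That SD holds no error between animals, and the difference was not tested.

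Among the subunits that sit with CENP-H, Cenpm had a lower ratio than Cenpk and Cenpi. Cenpk had a signal of 2278 after 2/3PH, against 456.2 after 1/3PH, 4.99-fold higher. Cenpi stood at 549.6 after 2/3PH, against 126.5 after 1/3PH, 4.34-fold higher. Cenpm had 380.1 after 2/3PH, against 160.8 after 1/3PH, 2.36-fold higher, and it fell short of 2-fold, at a log2 ratio of 0.98, with 64 units added to each signal. Cenpl and Cenpm were the only CCAN subunits measured under 3-fold on the deposited scale.

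Cenpt and Cenpw encode histone-fold proteins that form a second bridge from the centromere to the outer kinetochore. The signal of Cenpt was 355.1 after 2/3PH, against 51.0 (under the floor) after 1/3PH, hence at least 3.98-fold higher. That call rested on 1 probe set, since the other probe set of Cenpt was under the floor on both arrays, at 31.0 after 2/3PH, against 8.22 after 1/3PH. With the mean of both probe sets Cenpt was not called, at a log2 ratio of 0.23 with signals under the floor set to it. Cenpw had 578.7 after 2/3PH, against 136.4 after 1/3PH, 4.24-fold higher. Its other probe set had a log2 ratio of 2.73, beside 2.08 for the one used.

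The outer kinetochore was uneven, with high ratios in the NDC80 complex and low ones in the MIS12 complex. NDC80 is the main microtubule-binding complex, and its 3 measured subunits lay close together, between log2 ratios of 2.42 and 2.69. Spc25 had signals of 2916 after 2/3PH, against 450.8 after 1/3PH, 6.47-fold higher. Spc24, which pairs with it at the inner end of the complex, had 2599 after 2/3PH, against 417.3 after 1/3PH, 6.23-fold higher. Nuf2, the partner of NDC80 at the microtubule end, had 2290 after 2/3PH, against 426.9 after 1/3PH, 5.36-fold higher.

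MIS12 is the complex that joins the inner kinetochore to NDC80, and 1 of its 3 measured subunits passed 2-fold. Dsn1 had 351.1 after 2/3PH, against 113.4 after 1/3PH, 3.10-fold higher. Pmf1 had 232.5 after 2/3PH, against 124.7 after 1/3PH, 1.86-fold higher, and passed 2-fold with spike-in scaling (log2 ratio of 1.16 with the hybridisation controls, 1.33 with the poly-A controls). Mis12 had 332.6 after 2/3PH, against 329.0 after 1/3PH, for a log2 ratio of 0.02, which was below 0 under 3 of 5 other scalings. The log2 ratios of the 3 subunits thus ran from 0.02 to 1.63, against 2.42 to 2.69 for the 3 NDC80 subunits.

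Knl1 encodes the scaffold that recruits the BUB proteins, and Zwint its partner, which links to the RZZ complex. Knl1 was low on both arrays, with 147.4 after 2/3PH, against 28.3 (under the floor) after 1/3PH, hence at least 1.65-fold higher. Its log2 ratio on the deposited scale was 2.38. Zwint had 3116 after 2/3PH, against 1935 after 1/3PH, 1.61-fold higher, and it passed 2-fold with poly-A scaling (log2 ratio of 1.12).

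The SKA complex, which helps kinetochores hold on to shrinking microtubules, was higher in its 3 subunits. Ska1 had a signal of 908.0 after 2/3PH, against 160.1 after 1/3PH, 5.67-fold higher. For Ska3 the signals were 424.3 after 2/3PH, against 70.4 (under the floor) after 1/3PH, hence at least 4.75-fold higher. Ska2 had 938.9 after 2/3PH, against 409.6 after 1/3PH, 2.29-fold higher, and with the mean of both its probe sets its log2 ratio was 0.90, short of 2-fold. The second probe set of Ska2 was under the floor on both arrays.

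Genes of the RZZ complex and of Spindly, which bring dynein and the MAD proteins to unattached kinetochores, were higher in 3 of 4 cases, and Zw10 was not called. Zwilch had 1186 after 2/3PH, against 184.6 after 1/3PH, 6.42-fold higher. Kntc1, which encodes ROD, had 1189 after 2/3PH, against 317.1 after 1/3PH, 3.75-fold higher. Zw10, the third subunit of that complex, had 1049 after 2/3PH, against 701.6 after 1/3PH, a log2 ratio of 0.58 that was 1.01, just past 2-fold, with poly-A scaling. Zw10 also acts in membrane traffic between the endoplasmic reticulum and the Golgi in interphase cells. Spdl1, which encodes Spindly, had 581.4 after 2/3PH, against 123.3 after 1/3PH, 4.71-fold higher.

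The corona proteins CENP-E, a kinesin that carries chromosomes toward the spindle equator, and CENP-F had low 1/3PH signals. Cenpf had 596.6 after 2/3PH, against 88.2 (just under the floor) after 1/3PH, hence at least 6.68-fold higher. Cenpe had 157.4 after 2/3PH, against 32.7 (under the floor) after 1/3PH, hence at least 1.76-fold higher, with a log2 ratio of 2.27 on the deposited scale. With poly-A scaling Cenpe passed 2-fold, at 1.03 with signals under the floor set to it.

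**Figure D2:**
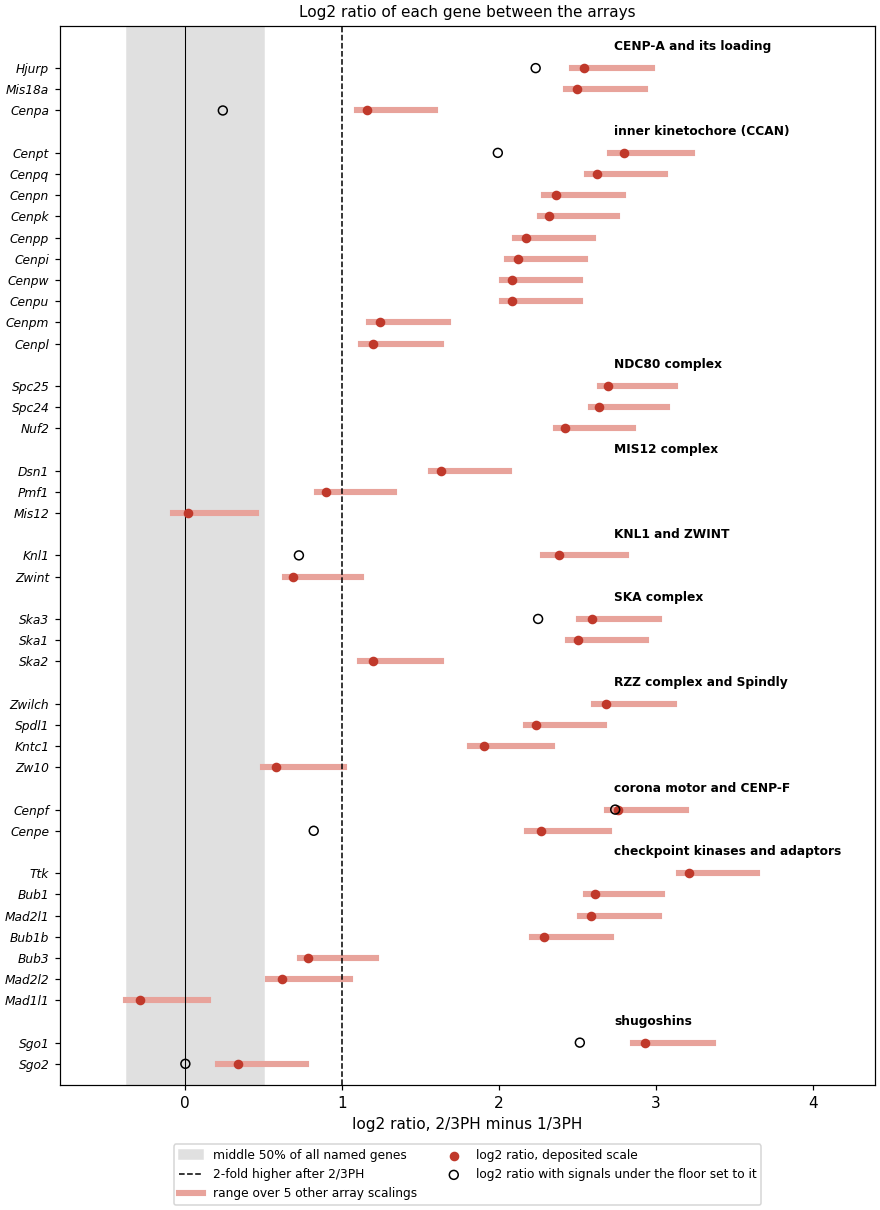
Log2 ratio, 2/3PH minus 1/3PH, of 39 genes grouped by role (red points), with the range over 5 other array scalings (pink bars), the value with signals under the floor set to it (open circles) and the middle 50% of all named genes (grey band). The NDC80 subunits lie between 2.42 and 2.69, while Mis12 at 0.02, Mad1l1 at -0.29 and Sgo2 at 0.34 lie inside the grey band.

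Checkpoint genes divided into 4 that were more than 4-fold higher and 3 that did not pass 2-fold. Ttk, which encodes the kinase MPS1 that starts checkpoint signalling, had 1195 after 2/3PH, against 129.0 after 1/3PH, 9.26-fold higher. This was the highest ratio among the 39 genes. With signals under the floor set to it, Ttk ranked 9 of 14217 named genes, and on the deposited scale, where dim genes keep their ratios, it ranked 159. The second Ttk probe set had 176.5 after 2/3PH, against 19.4 (under the floor) after 1/3PH, and its log2 ratio of 3.19 lay beside 3.21 for the one used. Bub1, a kinase that marks the centromere and holds checkpoint proteins, had 1820 after 2/3PH, against 298.2 after 1/3PH, 6.10-fold higher. Bub1b, which encodes BUBR1 of the mitotic checkpoint complex, had 744.7 after 2/3PH, against 152.8 after 1/3PH, 4.87-fold higher.

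Mad2l1 encodes MAD2, which binds CDC20 when the checkpoint is on, and it had 3 probe sets. The one used had 856.9 after 2/3PH, against 142.6 after 1/3PH, 6.01-fold higher. The 3 log2 ratios were 2.59, 1.85 and 2.29, so all lay above 2-fold.

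The 3 checkpoint-class genes that did not pass 2-fold were Bub3, Mad2l2 and Mad1l1. Bub3, a WD-repeat adaptor that binds BUB1 and BUBR1, had 4398 after 2/3PH, against 2558 after 1/3PH, 1.72-fold higher. It passed 2-fold with spike-in scaling (log2 ratio of 1.04 with the hybridisation controls, 1.21 with the poly-A controls). The second Bub3 probe set, with a log2 ratio of 0.05, was under the floor on both arrays. With the mean of both probe sets the log2 ratio of Bub3 was 0.41. Mad2l2 encodes REV7, which works mainly in DNA repair and translesion synthesis, and it had 575.6 after 2/3PH, against 375.3 after 1/3PH, 1.53-fold higher (log2 ratio of 1.05 with poly-A scaling, past 2-fold). Mad1l1 encodes MAD1, the partner of MAD2 at unattached kinetochores. Its signal was 559.5 after 2/3PH, against 682.8 after 1/3PH, for a log2 ratio of -0.29 that was 0.14 with poly-A scaling. Its other probe set was under the floor on both arrays, with a log2 ratio of 0.21.

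Shugoshins protect the cohesin that holds sister centromeres together. Sgo1 had 510.2 after 2/3PH, against 66.8 (under the floor) after 1/3PH, hence at least 5.72-fold higher. Sgo2 was under the floor on both arrays, at 40.1 after 2/3PH, against 31.8 after 1/3PH, so no fold is given.

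By rank of the log2 ratio with signals under the floor set to it, 19 of the 39 genes were among the 100 highest of all 14217 named genes. Apart from Ttk, these included Cenpf, Spc25, Zwilch and Spc24, ranked 28, 35, 37 and 39. The count depended on the floor. On the deposited scale, where dim genes keep their ratios, Ttk ranked highest of the 39 genes, at 159. None of the 39 was thus among the 100 highest on that scale. At the other end, 7 genes with signals above the floor on both arrays did not reach 2-fold, with log2 ratios from -0.29 to 0.90. They were Mis12, Pmf1, Zwint, Zw10, Bub3, Mad1l1 and Mad2l2. The remaining 4 that were not called, Cenpa, Knl1, Cenpe and Sgo2, had a 1/3PH signal under the floor.

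A list of 31 other genes with parts in the kinetochore, which holds no gene of the 45, had a lower median, and the genes named from it here were picked after their values were seen. Of its 29 measured genes, 11 were at least 2-fold higher and none lower, with a median log2 ratio of 0.63. For this list and those below, the background over all named genes was 3.90% higher and 2.36% lower. At a background of 2.36%, none lower among 29 genes says little about the list. Cdc20, the target of the checkpoint, had 1475 after 2/3PH, against 167.2 after 1/3PH. Knstrn, a spindle and kinetochore protein, had 554.2 after 2/3PH, against 67.1 (under the floor) after 1/3PH, hence at least 6.21-fold higher. Trip13, the ATPase that disassembles the mitotic checkpoint complex, had 1003 after 2/3PH, against 175.3 after 1/3PH. Mitotic kinases with the passenger complex had 10 of 11 genes at least 2-fold higher and a median log2 ratio of 2.70. The list for the MCM helicase, which unwinds DNA at replication forks, also held Mcm10, and had 7 of 7 and a median of 1.96. The medians of these lists are given side by side, and their differences were not tested, because each group has 1 array.

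**Figure D3:**
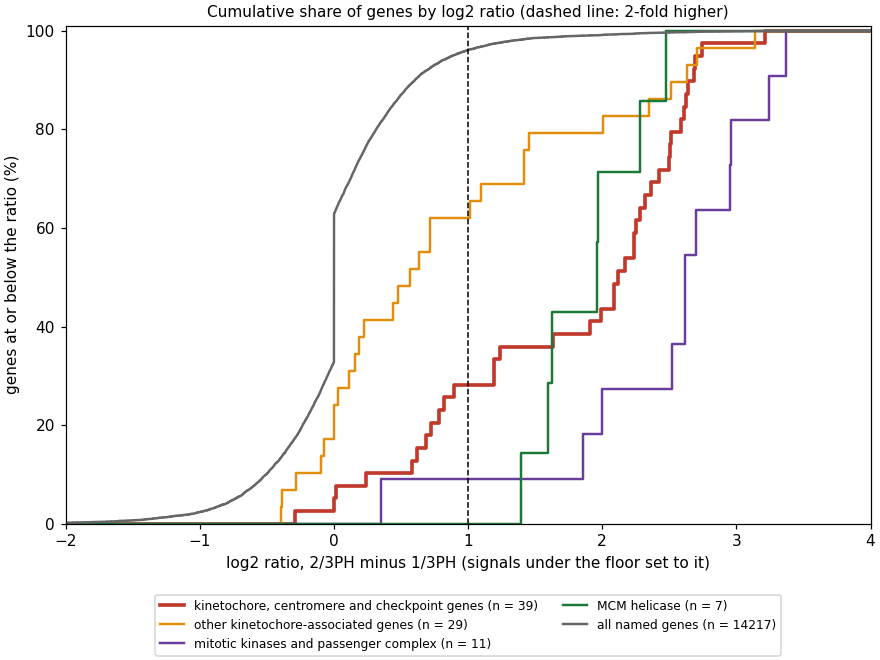
Cumulative percentage of genes (vertical axis) at or below each log2 ratio, 2/3PH minus 1/3PH with signals under the floor set to it (horizontal axis), for the 39 kinetochore genes, 3 other gene lists and all 14217 named genes, with 2-fold dashed. At 2-fold the curve of the 39 genes has counted 11, while 3.90% of all named genes lie at or beyond it.

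Of the 40 promoter windows, 23 (57.5%) held a CHR, against 14.0% of the 11733 windows of named genes on the array and 19.5% of all 27457 windows. Within 50 bases of the start, a CHR began in 16 of the 40 windows (40.0%), against 3.54% of the windows of named genes and 5.46% of all windows. That distance was chosen after the positions were seen. Over the whole window, a CHR was present in 16 of the 26 called genes (61.5%) and in 4 of the 8 genes that were not called (50%), and in 27.1% of the 479 windows of all genes at least 2-fold higher. A CCAAT box was present in 20 of 40 (50%), against 37.3% of named genes and 48.4% of all genes at least 2-fold higher. E2F sites as spelled here were present in 7 of 40 (17.5%), against 15.8% of named genes and 31.1% of all genes at least 2-fold higher. An E2F site was present in 4 of the 26 called genes, in 0 of the 8 not called and in 3 of the 6 with no probe set. A single pair of matches overlapped between motifs, in Ska2. Median GC content was 57.5% in the 40 windows and 60.0% in those of named genes. The letters are a description of the windows and no measure of binding.

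**Figure D4:**
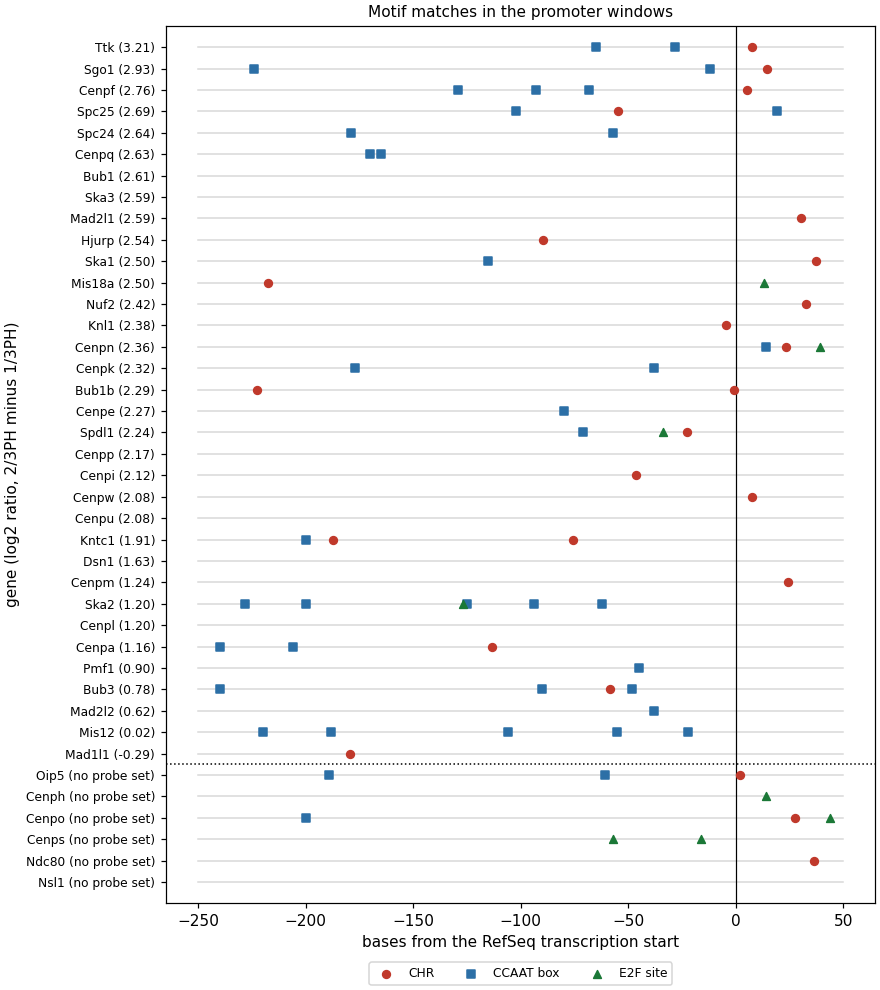
Positions of motif matches in 40 promoter windows (horizontal axis, bases from the RefSeq start; rows, genes ordered by log2 ratio, those without a probe set below the dotted line). CHR matches (red circles) gather around the start in rows such as Ttk, Sgo1 and Cenpf, and Mis12 and Ska2 each show 5 CCAAT boxes (blue squares).

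The tissue label was checked against cell markers, and the part of cell composition in the ratios above was not tested. All 10 measured hepatocyte markers were above the floor on both arrays, with a median log2 ratio of -0.17 and a summed signal of 302181 after 2/3PH, against 339965 after 1/3PH. All 11 measured macrophage markers had ratios below 0 on the deposited scale, with a median of -0.50. Their sum was 14967 after 2/3PH, against 22317 after 1/3PH. Poly-A scaling adds 0.43 to every log2 ratio in this paragraph, so the sign of a ratio nearer 0 than that depends on scaling. This holds for all 10 hepatocyte markers, at -0.35 to -0.05, and for some macrophage markers, which ran from -1.29 to -0.15. The 10 endothelial markers had a median of -0.59 (sums of 9694 after 2/3PH, against 15034 after 1/3PH). Stellate and matrix markers had 7 of 11 ratios below 0 and a median of -0.72 (8979 after 2/3PH, against 14803 after 1/3PH). The 6 neutrophil and erythroid markers had a median of -0.98 (14712 after 2/3PH, against 30257 after 1/3PH). Of 11 lymphocyte markers, 9 were under the floor on both arrays (583.8 after 2/3PH, against 626.0 after 1/3PH, median of -0.23), with a median of 0 once signals under the floor were set to it. Of the 5 cholangiocyte markers, 2 were under the floor on both arrays (1328 after 2/3PH, against 1293 after 1/3PH), and the median over all 5, -0.54, likewise was 0 with the floor.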

How the data were processed

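The authors' deposited table gives, per the labels' protocols, MAS 5.0 signals from GeneSpring 11.0 for 31099 probe sets on each of 2 arrays, on a log2 scale. The base of the log was checked: read as log2, both arrays have nearly the same trimmed mean (2% off each end), 500.2 for 2/3PH and 500.3 for 1/3PH. Since scaling equalises that mean, these data hold no measure of the RNA content of a cell. No detection calls were used.

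Platform annotation gave 1 symbol to 20826 of 31042 probe sets other than controls and several symbols, left unnamed, to 436, and 9780 had no entry. Symbols were updated by Entrez identifier to RefSeq (GRCr8). The probe set with the highest mean signal (log2) stood for a gene. Signals under the floor, 6.48 on the log2 scale (the median over probe sets other than controls of the mean of both arrays), were set to it on each array before genes were called at 2-fold, so that no gene was removed for being low on 1 array. With 1 array per group no p-value is given, and the number of arrays limits the precision.

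The rule for the gene set uses no measured value, but the set, the role groups and the other lists were chosen with earlier results of these data known. All 45 genes are accounted for, and a gene outside the set is named only beside a result on its list. The calling step was tested on simulated data. A total of 13 alternatives covered scaling, low signals, probe sets and limits. Python 3.11.15, numpy 2.4.6, pandas 2.3.3, statsmodels 0.14.6 and matplotlib 3.10.9 were used.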

Additional observations from a re-analysis of the deposited data

How the results depend on the processing

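No paired analysis was possible because each group has 1 array. A median log2 ratio is called moved here when it changed by at least 0.31, the SD between probe sets. The count of genes at least 2-fold higher was 28 of 39, and under alternatives that left the limit at 2-fold it stayed between 26 and 34 except with the 75th percentile floor, where it was 13. At 1.5-fold it was 34 and at 3-fold 25, and the count of lower genes was 0 in all 13 alternatives. Over all named genes the share called lower ran from 0.584% at 3-fold to 8.53% with no floor. At the lower of these shares, and at the 2.36% of the main rule, a count of 0 among 39 genes says little about the set. Hybridisation control scaling moved the median of all named genes by 0.26 and poly-A scaling by 0.43. Each of these scalings adds 1 constant to every log2 ratio, so relative to the median of all named genes the median of the 39 genes is 2.22 by construction. Of the called genes in the whole table, 62.3% were higher on the deposited scale, 83.9% when scaled to hybridisation controls and 92.5% when scaled to poly-A controls. The number of all named genes called higher was 555 on the deposited scale, 991 and 1497 with these scalings, 1662 with no floor, 264 with the 75th percentile floor, 1494 at 1.5-fold and 197 at 3-fold.

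With poly-A scaling the medians were 2.70 for all 39 genes, 2.93 for CENP-A and its loading, 2.58 for CCAN, 3.07 for NDC80, 1.33 for MIS12, 1.97 for Knl1 with Zwint, 2.94 for SKA, 2.50 for RZZ with Spindly, 2.94 for the corona pair, 2.72 for the checkpoint and 2.07 for the shugoshins. With the 75th percentile floor set on each array they were 0.41 for all 39, 0 for CENP-A and its loading, 0.33 for CCAN, 0 for MIS12, 0.34 for Knl1 with Zwint, 1.02 for SKA, 0.99 for RZZ with Spindly, 0.21 for the corona pair, 0.78 for the checkpoint and 0.093 for the shugoshins. That floor by construction sets dim signals equal. With 64 units added they were 1.72 for all 39, 1.83 for CENP-A and its loading, 1.68 for CCAN, 0.93 for Knl1 with Zwint, 1.86 for SKA, 1.75 for RZZ with Spindly, 1.66 for the corona pair, 1.90 for the checkpoint and 1.13 for the shugoshins. Leaving out genes with a mean under the floor kept 35 of the 39, with 28 called higher (background 6.12%). This left Zwint (0.69) and Sgo1 (2.93) alone in their groups. Of the 28, 23 were above the floor on both arrays. The other 5 (Hjurp, Cenpt, Ska3, Cenpf, Sgo1) passed only through 2/3PH, so these calls and values add no support. Sgo1 was 2.52 with 1/3PH set to the floor. In the list of 29 other kinetochore-associated genes, 11 were called higher (background 3.90%), but 2 with the 75th percentile floor (1.86%) and 6 at 3-fold (1.39%). In the same list 1 was called lower with no floor (background 8.53%) and with the mean of probe sets (2.36%). Of the 28 called genes, 12 kept their call in all 11 alternatives that left the limit at 2-fold. Mis12, Mad1l1 and Sgo2 were called in none of them.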
